A study of Mus musculus with 6 samples.

Results

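Macrophages and other leukocytes can be carried along when fibroblasts are grown out of a tissue, and 33 genes that mark these cells were followed through 6 libraries of mouse fibroblasts. The 33 genes were a listed set, taken by gene symbol from 57180 gene identifiers in the count table. The rule for the list named genes and no levels, but the list was chosen with earlier results of these data known. Polyadenylated RNA was sequenced from tail tip, cardiac and lung fibroblasts, each transduced with an adenovirus for Cre recombinase (Ad-Cre, which the labels equate with a GATA4 knockout) or for green fluorescent protein (Ad-GFP, the control). All 6 groups shared the same growth medium, DMEM with 10% fetal bovine serum, and were harvested 48 h after transduction. The labels give the genotype of every library, Ad-Cre and Ad-GFP alike, as WT. They state neither a conditional Gata4 allele nor the strain, age, sex or number of animals, and they do not say whether cells were sorted or for how long they had been cultured.

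Each of the 6 groups was 1 library, so no group has a replicate and differences inside an origin carry no test. Total counts lay between 26170316 in lung Ad-Cre and 33779069 in cardiac Ad-GFP. Gata4, the gene that Ad-Cre was meant to remove, had 2 reads in tail tip Ad-Cre and 1 in tail tip Ad-GFP, 4561 in cardiac Ad-Cre and 4769 in cardiac Ad-GFP, and 492 in lung Ad-Cre and 428 in lung Ad-GFP. Its CPM was thus not lower in Ad-Cre cells of any origin. No label names the exons that Cre should remove, and reads from other exons would not show their loss. Beside the label "fibroblast", 7 fibroblast genes, among them Col1a1, Col1a2 and Col3a1, summed to between 4843 and 16410 CPM (counts scaled to 1e6 reads of TMM-adjusted library size) in every library. Single genes of the list were uneven. Lum had 1.11 and 2.89 CPM in cardiac Ad-Cre and Ad-GFP, against 160 and 172 CPM in tail tip Ad-Cre and Ad-GFP. No threshold was set, so the sum describes the cells and does not test the label.

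Macrophages are phagocytes that arise from monocytes or from embryonic precursors that seed tissues. Their identity rests on the transcription factor PU.1 (encoded by Spi1), and their survival on the receptor for colony stimulating factor 1 (Csf1r), whose ligand fibroblasts make. They take up particles through scavenger and Fc receptors, signal through adaptors with an immunoreceptor tyrosine-based activation motif (ITAM), such as Tyrobp and Fcer1g, and digest what they take up in lysosomes. They also secrete the C1q chains that start the classical complement pathway. In skin, heart and lung they live among fibroblasts and can adhere to culture plastic with them.

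PU.1 binds DNA at a purine-rich box with the letters GAGGAA at its core. In RefSeq promoter windows of GRCm38.p6, which run from 250 bases before to 50 bases after a gene's start, 25 of the 33 genes were found, with 30 windows. The longer form GAGGAAGT stood on either strand in 3 of these 30 windows and in 3.2% of all 32851 windows. The shorter GAGGAA, which lies within the longer form, stood in 15 of 30 and in 28.3% of all. The 3 windows with the longer form are shown as members of 3 roles whose levels are described further on: Ctss, a lysosomal protease, Cd53, a leukocyte membrane protein, and C1qc, a complement chain. Each runs 5′ to 3′ on the gene's strand from 250 bases before the start to 30 bases after it, and capitals mark ACTTCCTC, which is GAGGAAGT read on the other strand. A match is a description of letters and not a measured site of binding.
Ctss (chr3:95526536-95526815, plus strand): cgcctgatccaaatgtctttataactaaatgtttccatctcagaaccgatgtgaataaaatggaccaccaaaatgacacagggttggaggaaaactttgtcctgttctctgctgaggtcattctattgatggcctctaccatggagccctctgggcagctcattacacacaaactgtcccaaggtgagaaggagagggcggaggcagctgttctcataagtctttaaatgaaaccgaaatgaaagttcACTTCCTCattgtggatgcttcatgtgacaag
Cd53 (chr3:106790120-106790399, minus strand): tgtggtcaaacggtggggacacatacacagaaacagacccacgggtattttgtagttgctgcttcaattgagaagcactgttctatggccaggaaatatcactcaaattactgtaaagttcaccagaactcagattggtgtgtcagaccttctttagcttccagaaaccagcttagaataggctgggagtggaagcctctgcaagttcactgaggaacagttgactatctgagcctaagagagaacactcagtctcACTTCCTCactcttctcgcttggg
C1qc (chr4:136892885-136893164, minus strand): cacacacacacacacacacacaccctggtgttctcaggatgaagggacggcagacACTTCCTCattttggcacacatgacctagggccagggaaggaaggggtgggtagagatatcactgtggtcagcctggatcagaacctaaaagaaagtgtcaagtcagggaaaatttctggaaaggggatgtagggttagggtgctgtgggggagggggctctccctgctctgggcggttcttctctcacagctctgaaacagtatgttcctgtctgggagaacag
In these windows the capitals began 2 bases before the start of Ctss, 6 bases after the start of Cd53 and 195 bases before the start of C1qc.

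The 33 genes differed between the origins far more than between the viruses, with tail tip cells highest, cardiac cells between and lung cells lowest. Together they took 0.662% of all reads in tail tip Ad-Cre and 0.785% in tail tip Ad-GFP. In cardiac cells they took 0.096% in Ad-Cre and 0.142% in Ad-GFP, and in lung cells 0.00525% in Ad-Cre and 0.00886% in Ad-GFP. The 95% Wilson intervals of these shares, which cover counting error only, ran from 0.659% to 0.664% in tail tip Ad-Cre and from 0.00498% to 0.00554% in lung Ad-Cre. On the CPM scale the sums were 6453 and 7648 in tail tip Ad-Cre and Ad-GFP, 942.8 and 1470 in cardiac Ad-Cre and Ad-GFP, and 53.5 and 89.8 in lung Ad-Cre and Ad-GFP. In bulk RNA a lower sum can mean fewer cells of a type or less RNA per cell, and the libraries cannot tell these apart. One gene, Lyz2, held 52.5% and 51.7% of these reads in tail tip Ad-Cre and Ad-GFP and 51.0% and 55.4% in cardiac Ad-Cre and Ad-GFP, against 0.8% and 1.49% in lung Ad-Cre and Ad-GFP. Without Lyz2 the sums kept the same order, at 3068 and 3697 CPM in tail tip, 462.4 and 654.9 CPM in cardiac and 53.1 and 88.4 CPM in lung Ad-Cre and Ad-GFP cells.

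**Figure D1:**
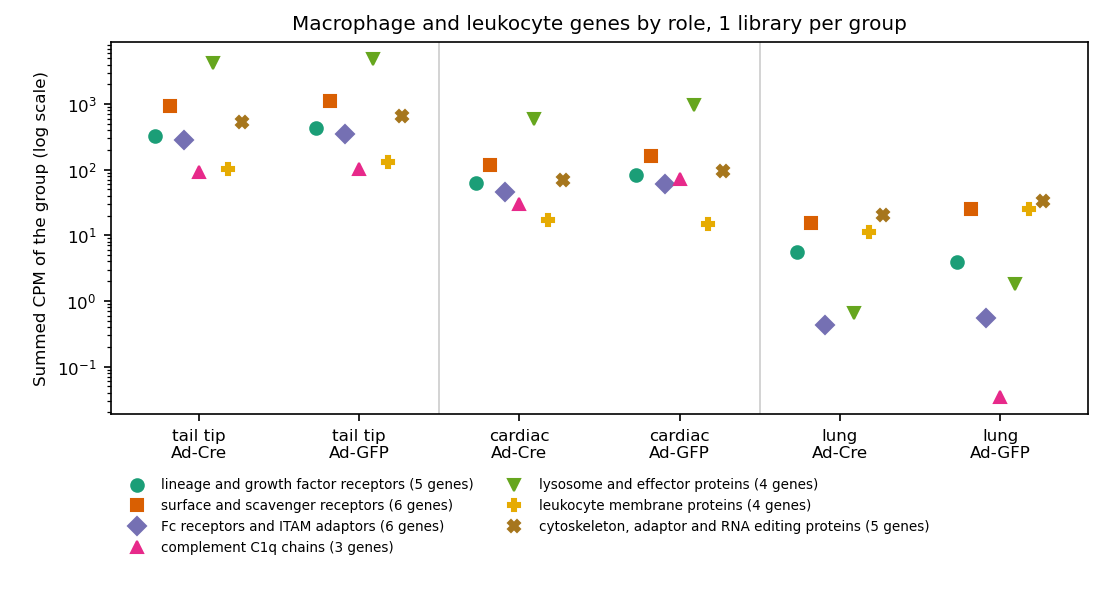
Summed CPM (log scale) of the 7 roles into which the 33 genes were sorted, in each of the 6 libraries, 1 point per role and library with no error bar because each group is 1 library. The complement C1q chains have no point in lung Ad-Cre, where they had 0 reads, and stand at 93.1 CPM in tail tip Ad-Cre.

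Of the 33 genes, 30 were higher in both tail tip libraries than in the other four libraries, a description only, since the share over all genes was not counted. In 28 the libraries ordered as tail tip, cardiac and lung with no overlap between origins, an order that 13.8% of all 18143 tested genes had. The 5 without it were Ccr2, Mrc1, Cd163, Cd53 and Apobec1. In lung cells 22 of the 33 genes had fewer than 10 reads in both libraries, and 11 had at least 10 in one of them. Cd163, a scavenger receptor for haemoglobin and haptoglobin, had 1 read in tail tip Ad-GFP, 1 in cardiac Ad-Cre, 4 in lung Ad-Cre and 0 in the other three libraries, and was the 1 gene of the 33 that did not pass the filter on low counts.

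The origins were compared across the 6 libraries in edgeR's quasi-likelihood model, with the virus as a second term, at an adjusted p of 0.05 over all genes tested. The Ad-Cre and Ad-GFP libraries of an origin served as its replicates, which left 2 residual degrees of freedom. The p-values measure the scatter left after origin and virus, and not the spread between animals or cultures. A difference between origins thus cannot be told apart from one between the animals or cultures used. Tail tip against lung, 31 of the 32 tested members were higher and 0 lower, where 28.2% of all genes were higher and 22.3% lower. Tail tip against cardiac, 28 were higher and 0 lower, where 18% of all genes were higher and 15.5% lower. Cardiac against lung, 28 were higher and 1 lower, where 20.8% of all genes were higher and 17.6% lower. Of the 32 tested members, 21 had fewer than 10 reads in both lung libraries and passed the filter only through origins where they were high, so that the counts against lung describe them and support nothing more. The median fitted log2 fold change of the members was 9.50 for tail tip over lung, 2.66 for tail tip over cardiac and 6.81 for cardiac over lung, beside 0.06, 0.06 and -0.01 over all genes. Ccr2, C1qa and C1qb had 0 reads in both lung libraries. With these at a lower bound, set against 3 counts over the lung pair, the median of the log2 ratios of summed reads was 9.28 for tail tip over lung and 6.74 for cardiac over lung.

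**Figure D2:**
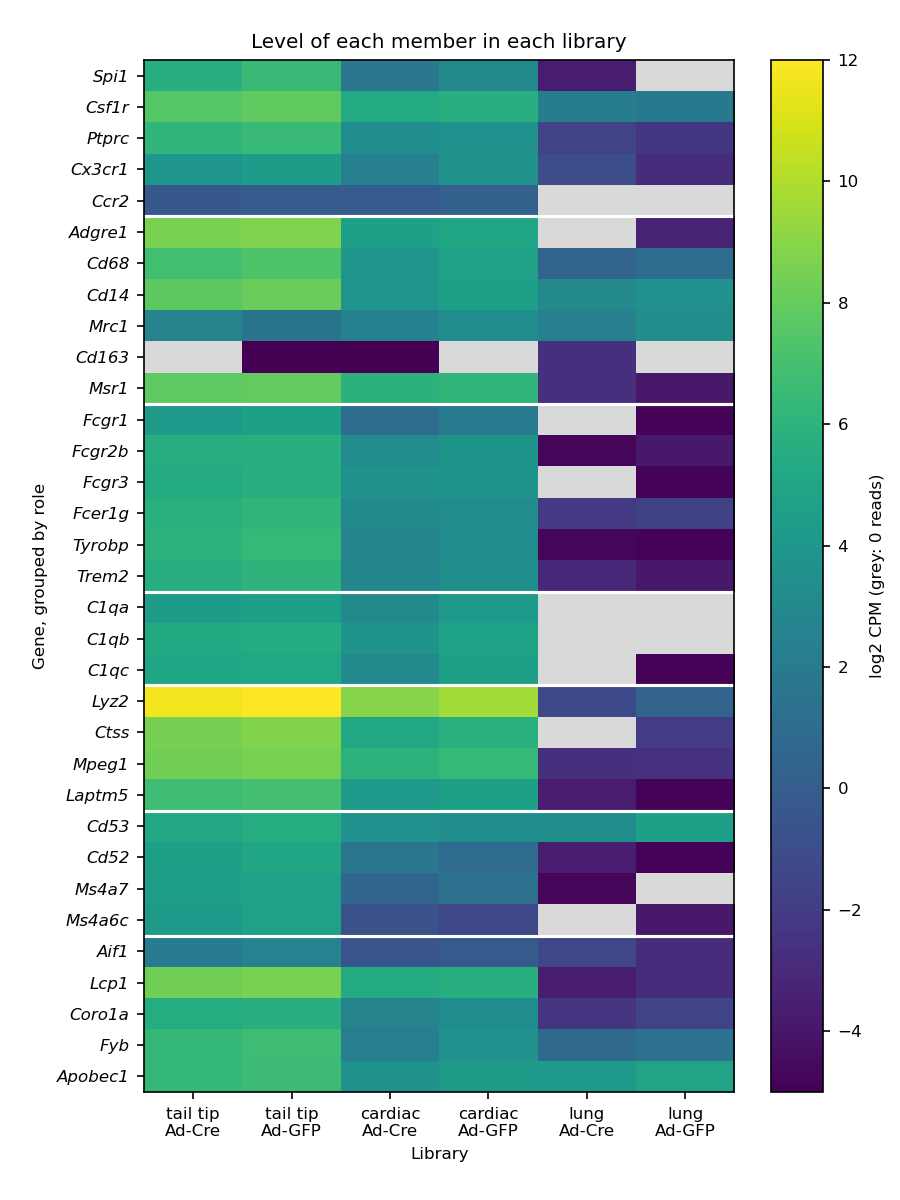
Log2 CPM of each of the 33 genes (rows, grouped by role) in each of the 6 libraries (columns), with cells of 0 reads in grey. The 2 tail tip columns are brightest for 30 of the 33 genes, Lyz2 is the brightest row there, and 9 genes are grey in lung Ad-Cre.

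Among the lineage and growth factor receptors, Spi1 had 53.9 CPM in tail tip Ad-Cre and 87.0 in tail tip Ad-GFP, 3.37 in cardiac Ad-Cre and 8.17 in cardiac Ad-GFP, and 2 reads in lung Ad-Cre and 0 in lung Ad-GFP. Its level in tail tip cells exceeded that in cardiac cells by 3.68 on the log2 scale (SE 0.30, edgeR adjusted p = 0.000172), with no overlap between origins. Csf1r, which binds CSF1 and interleukin 34, had 187 CPM in tail tip Ad-Cre and 234 in tail tip Ad-GFP, 42.7 in cardiac Ad-Cre and 50.4 in cardiac Ad-GFP, and 4.56 in lung Ad-Cre and 3.60 in lung Ad-GFP. The log2 difference was 2.18 for tail tip over cardiac (SE 0.19, edgeR adjusted p = 0.00022) and 3.51 for cardiac over lung (SE 0.21, edgeR adjusted p = 4.91e-05). Part of the Csf1r reads may belong to Hmgxb3, which overlaps 15.1% of its exon bases on the opposite strand and had 1761 and 1585 reads in tail tip Ad-Cre and Ad-GFP and 2955 and 3067 in lung Ad-Cre and Ad-GFP. That overlap touches above all the 117 and 105 Csf1r reads of lung Ad-Cre and Ad-GFP. Ptprc, the CD45 phosphatase found on nearly all leukocytes, had 2376 reads in tail tip Ad-Cre and 2760 in tail tip Ad-GFP, 291 in cardiac Ad-Cre and 397 in cardiac Ad-GFP, and 9 in lung Ad-Cre and 6 in lung Ad-GFP.

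The 2 chemokine receptors of the list stood apart from these. Cx3cr1, the fractalkine receptor of many resident macrophages, had 14.9 CPM in tail tip Ad-Cre and 21.1 in tail tip Ad-GFP, against 5.40 in cardiac Ad-Cre and 12.4 in cardiac Ad-GFP. Its tail tip values lay above both cardiac values, but the log2 difference of 1.07 (SE 0.44) missed the threshold, with an edgeR adjusted p of 0.1. It passed without either lung library (1.14 each) or both (1.09), without cardiac Ad-Cre (0.62), without cardiac Ad-GFP (1.66) and with no filter on low counts (1.13). Ccr2, which draws monocytes from blood toward CCL2, had 26 reads in tail tip Ad-Cre and 31 in tail tip Ad-GFP, 29 in cardiac Ad-Cre and 37 in cardiac Ad-GFP, and 0 in lung Ad-Cre and lung Ad-GFP. It had no higher level in tail tip than in cardiac cells (log2 difference -0.25, SE 0.67, edgeR adjusted p = 0.809). Against the floor of 3 counts over the lung pair, Ccr2 was at least 16.1-fold higher in tail tip and at least 19.1-fold higher in cardiac cells.

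Among the surface and scavenger receptors, Adgre1, the F4/80 antigen of mouse macrophages, had 388 CPM in tail tip Ad-Cre and 426 in tail tip Ad-GFP, 23.9 in cardiac Ad-Cre and 31.6 in cardiac Ad-GFP, and 0 and 3 reads in lung Ad-Cre and Ad-GFP. Tail tip over cardiac, its log2 difference was 3.89 (SE 0.23, edgeR adjusted p = 4.82e-05). Msr1, a scavenger receptor for modified lipoproteins, had 7312 and 7855 reads in tail tip Ad-Cre and Ad-GFP, 1854 and 2274 in cardiac Ad-Cre and Ad-GFP, and 4 and 2 in lung Ad-Cre and Ad-GFP. The tail tip and cardiac values of both genes did not overlap, and in lung cells both were at or near 0. The step between tail tip and cardiac cells was smaller for Msr1 than for Adgre1, at 1.84 on the log2 scale (SE 0.17, edgeR adjusted p = 0.000259), although the difference between the 2 genes was not tested. The Msr1 call was lost with limma-voom (1.84).

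Cd14, the co-receptor for lipopolysaccharide, and Cd68, a glycoprotein of macrophage lysosomes, were measured above 30 reads in every library. Cd14 had 207 CPM in tail tip Ad-Cre and 282 in tail tip Ad-GFP, 14.5 in cardiac Ad-Cre and 23.6 in cardiac Ad-GFP, and 8.14 in lung Ad-Cre and 11.97 in lung Ad-GFP. Its cardiac values lay above both lung values by 0.91 on the log2 scale (SE 0.16, edgeR adjusted p = 0.00405), and its tail tip values lay above the cardiac ones by 3.71 (SE 0.16, edgeR adjusted p = 2.41e-05). Cd68 had 116 CPM in tail tip Ad-Cre and 156 in tail tip Ad-GFP, 14.8 in cardiac Ad-Cre and 25.98 in cardiac Ad-GFP, and 1.40 in lung Ad-Cre and 2.02 in lung Ad-GFP. The 3 origins did not overlap for Cd68, and its log2 differences were 2.77 for tail tip over cardiac (SE 0.17, edgeR adjusted p = 5.75e-05) and 3.55 for cardiac over lung (SE 0.20, edgeR adjusted p = 3.55e-05).

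Mrc1, the mannose receptor CD206 of many tissue macrophages, did not follow the other members. It had 6.01 CPM in tail tip Ad-Cre and 3.11 in tail tip Ad-GFP, 5.63 in cardiac Ad-Cre and 9.55 in cardiac Ad-GFP, and 5.41 in lung Ad-Cre and 10.6 in lung Ad-GFP. The 3 origins overlapped, and no pairwise difference passed the test, with edgeR adjusted p of 0.24 for tail tip over lung, 0.327 for tail tip over cardiac and 0.917 for cardiac over lung. Mrc1 passed as lower in tail tip than in lung cells without cardiac Ad-Cre (-0.81), without cardiac Ad-GFP (-0.80) and without tail tip Ad-Cre (-1.72). It passed as lower in tail tip than in cardiac cells without cardiac Ad-Cre (-1.04) and without tail tip Ad-Cre (-1.64).

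The Fc receptors and ITAM adaptors were close to 0 in lung cells, where the 6 genes summed to 0.43 CPM in Ad-Cre and 0.55 CPM in Ad-GFP. They summed to 279 CPM in tail tip Ad-Cre and 346 CPM in tail tip Ad-GFP, and to 46.3 CPM in cardiac Ad-Cre and 61.4 CPM in cardiac Ad-GFP. All 6 were higher in tail tip than in cardiac cells, with log2 differences between 1.78 for Fcgr3 and 3.20 for Tyrobp, where 18% of all genes were higher. With limma-voom the calls of Fcgr2b and Fcgr3 were lost (2.08 for Fcgr2b and 1.79 for Fcgr3). Tyrobp, the adaptor DAP12, had 2098 reads in tail tip Ad-Cre and 2666 in tail tip Ad-GFP, 202 in cardiac Ad-Cre and 307 in cardiac Ad-GFP, and 1 in each lung library. Trem2, a lipid-sensing receptor that signals through DAP12, had 1646 reads in tail tip Ad-Cre and 2113 in tail tip Ad-GFP, 217 in cardiac Ad-Cre and 354 in cardiac Ad-GFP, and 3 and 2 in lung Ad-Cre and Ad-GFP. Reads of both genes therefore came almost wholly from the tail tip and cardiac pairs. Fcer1g, the common Fc receptor gamma chain, had 1864 and 2259 reads in tail tip Ad-Cre and Ad-GFP, 253 and 305 in cardiac Ad-Cre and Ad-GFP, and 6 and 9 in lung Ad-Cre and Ad-GFP. The immunoglobulin G receptors ranged in tail tip cells from 614 reads of Fcgr1 in Ad-Cre to 1606 reads of Fcgr2b in Ad-Cre. Fcgr1 is a high-affinity activating receptor, Fcgr3 a low-affinity activating one, and Fcgr2b the inhibitory one. Fcgr2b and Fcgr3 share sequence, so their separate counts are uncertain.

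The complement C1q chains, which assemble from the products of C1qa, C1qb and C1qc, had 1 read among all 3 genes in the lung libraries, a C1qc read in lung Ad-GFP. In tail tip cells C1qa had 21.0 CPM in Ad-Cre and 24.6 in Ad-GFP, and in cardiac cells 8.31 in Ad-Cre and 18.8 in Ad-GFP. C1qb had 40.9 CPM in tail tip Ad-Cre and 43.7 in tail tip Ad-GFP, and 13.9 in cardiac Ad-Cre and 29.6 in cardiac Ad-GFP. C1qc, whose promoter window is shown above, had 31.2 CPM in tail tip Ad-Cre and 34.6 in tail tip Ad-GFP, and 8.01 in cardiac Ad-Cre and 24.8 in cardiac Ad-GFP. For all 3 chains both tail tip values lay above both cardiac values, but the cardiac Ad-GFP value came close to the tail tip values and the cardiac Ad-Cre value did not. The log2 difference of tail tip over cardiac passed for C1qb (1.05, SE 0.28, edgeR adjusted p = 0.0302) and C1qc (1.21, SE 0.35, edgeR adjusted p = 0.0368) and missed the threshold for C1qa (0.86, SE 0.29, edgeR adjusted p = 0.0673). Without the tail tip Ad-Cre library the C1qb and C1qc differences were 0.59 and 0.49 and no longer passed, and without the cardiac Ad-Cre library that of C1qc was 0.47 and did not pass. With limma-voom neither passed. C1qa passed without cardiac Ad-GFP (1.38), without tail tip Ad-GFP (1.38), without either lung library (0.89 each) or both (0.84), and with no filter on low counts (0.92).

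The lysosome and effector proteins held the most abundant members. Lyz2, the lysozyme of myeloid cells that cleaves bacterial walls, had 112132 reads in tail tip Ad-Cre and 125714 in tail tip Ad-GFP, 14685 in cardiac Ad-Cre and 26527 in cardiac Ad-GFP, and 11 in lung Ad-Cre and 39 in lung Ad-GFP. On the CPM scale these were 3384 and 3951 in tail tip Ad-Cre and Ad-GFP, 480.4 and 815 in cardiac Ad-Cre and Ad-GFP, and 0.43 and 1.34 in lung Ad-Cre and Ad-GFP. The origins did not overlap, and the log2 differences were 2.56 for tail tip over cardiac (SE 0.25, edgeR adjusted p = 0.000325) and 9.51 for cardiac over lung (SE 0.36, edgeR adjusted p = 1.25e-05). Its close copy Lyz1 had at most 121 reads in any library, and reads that fit both cannot be assigned with certainty. Per exon length, Lyz2 was also the highest member in tail tip cells, at 2572 RPKM (CPM per kilobase of exon) in Ad-Cre and 3002 in Ad-GFP, and Ctss followed with 266 RPKM in Ad-Cre and 317 RPKM in Ad-GFP.

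Ctss, the protease cathepsin S that trims the invariant chain of MHC class II, had 361 CPM in tail tip Ad-Cre and 430.4 in tail tip Ad-GFP, 37.0 in cardiac Ad-Cre and 54.4 in cardiac Ad-GFP, and 0 and 7 reads in lung Ad-Cre and Ad-GFP. Mpeg1, which encodes the pore-forming protein perforin-2, had 329 CPM in tail tip Ad-Cre and 375 in tail tip Ad-GFP, 63.3 in cardiac Ad-Cre and 85.6 in cardiac Ad-GFP, and 4 and 5 reads in lung Ad-Cre and Ad-GFP. Laptm5, a lysosomal membrane protein of blood cells, had 104 CPM in tail tip Ad-Cre and 119.7 in tail tip Ad-GFP, 18.1 in cardiac Ad-Cre and 25.6 in cardiac Ad-GFP, and 2 and 1 reads in lung Ad-Cre and Ad-GFP. All 3 genes ordered by origin without overlap. Their log2 differences of tail tip over cardiac were 3.14 for Ctss (SE 0.27, edgeR adjusted p = 0.000211), 2.26 for Mpeg1 (SE 0.15, edgeR adjusted p = 7.61e-05) and 2.37 for Laptm5 (SE 0.18, edgeR adjusted p = 0.000122), the last of which was lost with limma-voom.

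Among the leukocyte membrane proteins, the tetraspanin gene Cd53 was unlike the rest in lung cells. It had 37.9 CPM in tail tip Ad-Cre and 46.0 in tail tip Ad-GFP, 12.1 in cardiac Ad-Cre and 9.95 in cardiac Ad-GFP, and 11.1 in lung Ad-Cre and 24.7 in lung Ad-GFP. Its tail tip values were the highest, by 1.90 on the log2 scale over cardiac (SE 0.32, edgeR adjusted p = 0.0045) and by 1.28 over lung (SE 0.32, edgeR adjusted p = 0.0129). Its cardiac and lung values overlapped (cardiac over lung -0.61, SE 0.32, edgeR adjusted p = 0.176), a difference that passed without lung Ad-Cre (-1.19), without cardiac Ad-Cre (-1.10) and with no filter (-0.66). Cd52, a small lipid-anchored antigen of lymphocytes and macrophages, had 816 reads in tail tip Ad-Cre and 1021 in tail tip Ad-GFP, 98 in cardiac Ad-Cre and 64 in cardiac Ad-GFP, and 2 and 1 in lung Ad-Cre and Ad-GFP. The tail tip values of Cd52 stood far above the rest. Part of the Cd52 reads may belong to Crybg2, which overlaps 14.5% of its exon bases on the opposite strand. Crybg2 had 51 and 3 reads in cardiac Ad-Cre and Ad-GFP. Ms4a7, a membrane protein of the MS4A family found in macrophages, had 770 reads in tail tip Ad-Cre and 846 in tail tip Ad-GFP, 44 in cardiac Ad-Cre and 88 in cardiac Ad-GFP, and 1 and 0 in lung Ad-Cre and Ad-GFP. Ms4a6c, another myeloid member of that family, had 610 reads in tail tip Ad-Cre and 836 in tail tip Ad-GFP, 18 in cardiac Ad-Cre and 13 in cardiac Ad-GFP, and 0 and 2 in lung Ad-Cre and Ad-GFP. The step of tail tip over cardiac was largest among the 32 tested members for Ms4a6c, at 5.47 on the log2 scale (SE 0.44, edgeR adjusted p = 0.000145). The Ms4a6c counts are uncertain, since it belongs to a family of close relatives and an antisense transcript covers 53.1% of its exon bases.

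Among the cytoskeleton, adaptor and RNA editing proteins, Lcp1, the actin-bundling protein L-plastin, had 322 CPM in tail tip Ad-Cre and 383 in tail tip Ad-GFP, 43.9 in cardiac Ad-Cre and 53.1 in cardiac Ad-GFP, and 2 and 4 reads in lung Ad-Cre and Ad-GFP. Coro1a, an actin-binding coronin of leukocytes, had 1543 and 1680 reads in tail tip Ad-Cre and Ad-GFP, 183 and 310 in cardiac Ad-Cre and Ad-GFP, and 5 and 10 in lung Ad-Cre and Ad-GFP. Both were highest in tail tip and lowest in lung cells without overlap. Fyb, an adaptor that links receptor signals to integrins, had 78.4 CPM in tail tip Ad-Cre and 105 in tail tip Ad-GFP, 4.81 in cardiac Ad-Cre and 11.9 in cardiac Ad-GFP, and 1.71 in lung Ad-Cre and 2.71 in lung Ad-GFP. Its log2 difference was 3.56 for tail tip over cardiac (SE 0.25, edgeR adjusted p = 8.78e-05) and 1.85 for cardiac over lung (SE 0.26, edgeR adjusted p = 0.0019). Aif1, which encodes the calcium-binding protein IBA1, had 133 reads in tail tip Ad-Cre and 182 in tail tip Ad-GFP, 21 in cardiac Ad-Cre and 29 in cardiac Ad-GFP, and 10 in lung Ad-Cre and 4 in lung Ad-GFP. Aif1 was higher in tail tip than in cardiac cells by 2.62 on the log2 scale (SE 0.56, edgeR adjusted p = 0.0117), a call that was lost without the tail tip Ad-GFP library (2.15). Its cardiac and lung levels were not separated by the test (1.59, SE 0.64, edgeR adjusted p = 0.0928), although they were without lung Ad-Cre (2.67) and without cardiac Ad-Cre (1.73).

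Apobec1, the cytidine deaminase that edits apolipoprotein B RNA, was the 1 member that the test called lower in cardiac than in lung cells. It had 80.7 CPM in tail tip Ad-Cre and 101 in tail tip Ad-GFP, 13.4 in cardiac Ad-Cre and 19.3 in cardiac Ad-GFP, and 18.2 in lung Ad-Cre and 30.6 in lung Ad-GFP. The cardiac Ad-GFP value lay between the lung values, and the cardiac over lung difference was -0.56 on the log2 scale (SE 0.17, edgeR adjusted p = 0.0387). That call was lost without lung Ad-GFP (-0.42), without either tail tip library (-0.58 each), without both (-0.53) and with limma-voom (-0.56). In tail tip cells Apobec1 was higher than in cardiac cells by 2.49 (SE 0.18, edgeR adjusted p = 9.27e-05).

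The tail tip and cardiac libraries could be set against each other within each virus. Over the 32 tested members, the CPM ratio of tail tip to cardiac had a median of 6.90 in Ad-Cre cells and 5.78 in Ad-GFP cells. It lay between 0.827 for Ccr2 and 31.3 for Ms4a6c in Ad-Cre cells, and between 0.326 for Mrc1 and 65.8 for Ms4a6c in Ad-GFP cells. The 95% counting interval lay above 1 for 30 members in Ad-Cre cells and for 30 in Ad-GFP cells. It lay below 1 for Mrc1 in Ad-GFP cells. The share of all tested genes with such intervals was not counted, so these counts describe the members alone. The C1q genes had ratios of 2.53 (C1qa), 2.95 (C1qb) and 3.90 (C1qc) in Ad-Cre cells and of 1.31 (C1qa), 1.48 (C1qb) and 1.39 (C1qc) in Ad-GFP cells.

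**Figure D3:**
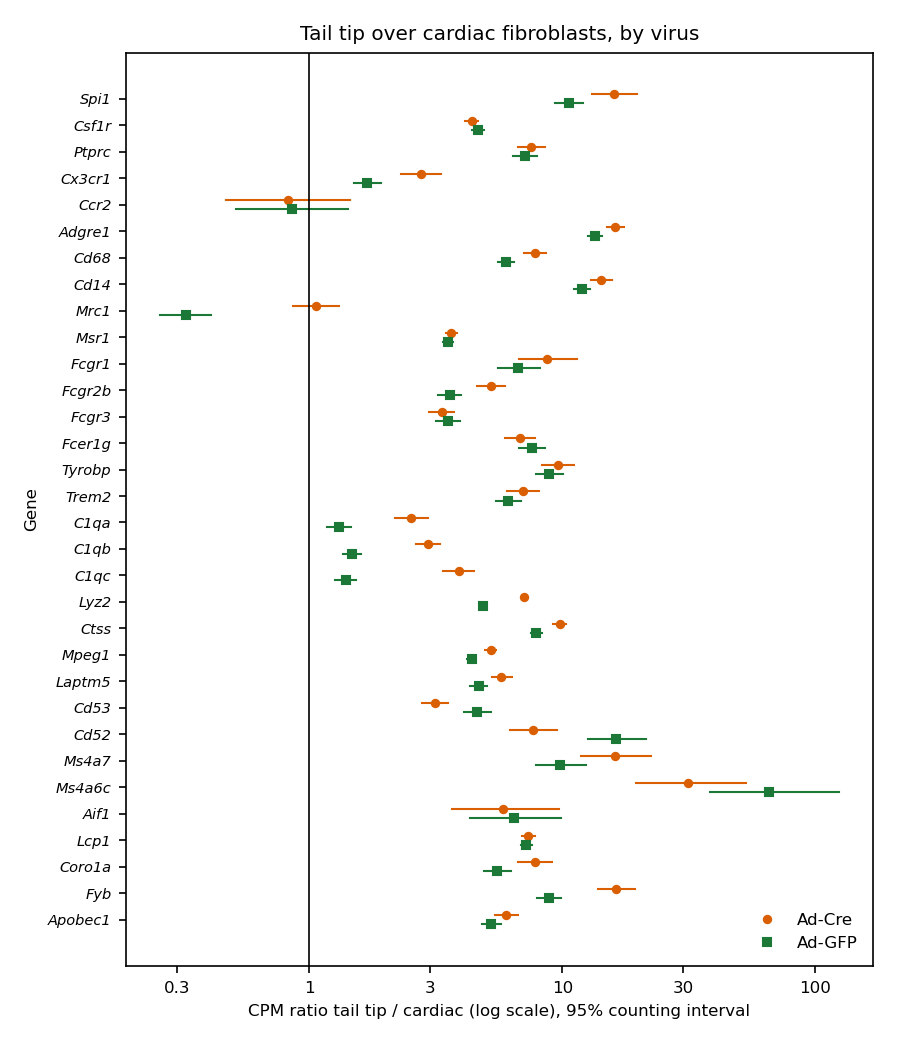
CPM ratio of tail tip to cardiac fibroblasts (log scale) for 32 members, with Ad-Cre as circles and Ad-GFP as squares and bars for 95% counting intervals; Cd163 is left out for its low reads. Most ratios lie between 3 and 20, those of Ccr2 hold 1, and that of Mrc1 in Ad-GFP cells is 0.326.

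The effect of Ad-Cre over Ad-GFP was first tested as 1 shift shared by all 3 origins. No member passed, and 0 of 18143 genes did (0%; smallest edgeR adjusted p = 0.9996). At an unadjusted p of 0.05 edgeR took 10 of the 32 members and 367 of all genes (2.02%), and DESeq2 called 3 genes and 0 members after adjustment. The fitted log2 change was below 0 for 31 of 32 members, Cd52 being the exception at 0.13, with a median of -0.42 beside 0.00 over all genes. The members with the smallest unadjusted p were Cd14 (log2 change -0.57, SE 0.12), Cd68 (-0.60, SE 0.14) and Fyb (-0.79, SE 0.20). The p-values come from a model with 2 residual degrees of freedom, and the members are correlated, so their number is not a count of independent changes.

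Within each origin the summed level of the members was lower in the Ad-Cre library than in the Ad-GFP library. The ratio of Ad-Cre to Ad-GFP was 0.844 in tail tip cells (95% counting interval 0.839 to 0.849), 0.642 in cardiac cells (0.632 to 0.651) and 0.597 in lung cells (0.558 to 0.637). There is no replicate check on these ratios. The lung sum of 1375 reads in Ad-Cre and 2618 in Ad-GFP came mostly from Apobec1, Cd53, Cd14, Mrc1 and Csf1r. These were the 5 members with at least 100 reads, and the lung ratio describes mainly them. Of these, Mrc1, Cd53 and Apobec1 did not follow the order of origins. Ptprc had 9 reads in lung Ad-Cre and 6 in lung Ad-GFP. The CPM was lower with Ad-Cre in all 3 origins for 15 of the 33 genes, as for 8.95% of all tested genes. The counting interval lay below 1 in both tail tip and cardiac cells for 22 genes, beside 7.34% of all tested genes. It did so in all 3 origins for 5 genes, beside 0.827%. The 5 were Cd14, Lyz2, Ctss, Fyb and Apobec1.

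In tail tip cells the differences were small and nearly all in 1 direction. The counting interval of Ad-Cre over Ad-GFP lay below 1 for 28 of the 33 genes, beside 14.2% of all tested genes, and above 1 for Mrc1, beside 15.4%. No member was 2-fold lower or higher, where 1.58% of all genes were 2-fold lower and 1.53% 2-fold higher. The median log2 ratio was -0.28, beside 0.01 over all tested genes, and the lowest was that of Spi1 at -0.69. Spi1 had 1785 reads in Ad-Cre and 2769 in Ad-GFP, a CPM ratio of 0.619 (0.583 to 0.657). Mrc1 had 199 reads in Ad-Cre and 99 in Ad-GFP, a ratio of 1.93 (1.51 to 2.48), the opposite of the other members. Lyz2 had a ratio of 0.857 (0.8497 to 0.8635), Adgre1 of 0.910 (0.889 to 0.933) and Csf1r of 0.8 (0.773 to 0.828). The fibroblast list in the same libraries summed to 14290 CPM in Ad-Cre and 15570 CPM in Ad-GFP, with a median log2 ratio of -0.10 over its 7 genes.

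In cardiac cells the differences were larger, in a pair of libraries that also differed more over all genes. The counting interval lay below 1 for 25 of the 33 genes, beside 33.2% of all tested genes, and above 1 for 2, Cd53 and Cd52, beside 31.8%. At least 2-fold lower were 6 members, Spi1, Cx3cr1, C1qa, C1qb, C1qc and Fyb, beside 9.07% of all genes, and 0 were 2-fold higher, beside 11.3%. The median log2 ratio was -0.54, beside 0.00 over all genes. C1qc had 245 reads in Ad-Cre and 809 in Ad-GFP, a ratio of 0.323 (0.278 to 0.373), the lowest of the members. C1qa had 254 in Ad-Cre and 611 in Ad-GFP (ratio 0.443, 0.381 to 0.513), and C1qb 424 in Ad-Cre and 964 in Ad-GFP (ratio 0.468, 0.417 to 0.526). In tail tip cells the same 3 chains had ratios of 0.857 (C1qa), 0.936 (C1qb) and 0.904 (C1qc). Spi1 had 103 reads in Ad-Cre and 266 in Ad-GFP (ratio 0.412, 0.325 to 0.520), and Fyb 147 in Ad-Cre and 387 in Ad-GFP (ratio 0.405, 0.332 to 0.490). The other members whose interval lay below 1 had ratios between 0.533 for Ms4a7 (0.362 to 0.773) and 0.868 for Msr1 (0.816 to 0.924). The surface and scavenger receptors were spread over that range, with 0.572 for Cd68 (0.509 to 0.641), 0.589 for Mrc1 (0.486 to 0.712), 0.613 for Cd14 (0.544 to 0.690) and 0.757 for Adgre1 (0.687 to 0.833). Lyz2 had a ratio of 0.590 (0.578 to 0.602) and Csf1r of 0.848 (0.788 to 0.912).

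Other cell type lists also differed between the 2 cardiac libraries. The 6 epithelial and mesothelial genes, among them Msln, Upk3b and Krt18, summed to 101.5 CPM in cardiac Ad-Cre and 12.2 CPM in cardiac Ad-GFP, and the interval of each lay above 1. The 7 fibroblast genes summed to 11070 CPM in cardiac Ad-Cre and 16410 CPM in cardiac Ad-GFP, with a median log2 ratio of -0.79 and 6 of 7 intervals below 1. The part of these differences in the lower macrophage levels of cardiac Ad-Cre cells was not tested.

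In lung cells most members had too few reads for a difference to be detectable. Of the 33 genes, 8 had at least 20 reads in the pair, and their median log2 ratio was -0.70. Over all tested members it was -0.34, beside 0.025 over all genes. The interval lay below 1 for 7 genes, beside 18.6% of all tested genes, and above 1 for 1, Cx3cr1, beside 20.8%. At least 2-fold lower were 5 tested members, beside 2.82% of all genes, and 3 were 2-fold higher, beside 4.87%. Of the 5 lower ones, Lyz2 and Cd53 had at least 20 reads. Cd53 had 284 reads in Ad-Cre and 720 in Ad-GFP, a ratio of 0.448 (0.389 to 0.515). Mrc1 had 139 reads in Ad-Cre and 310 in Ad-GFP, a ratio of 0.509 (0.414 to 0.624), and Apobec1 466 in Ad-Cre and 891 in Ad-GFP, a ratio of 0.594 (0.530 to 0.665). Cx3cr1 was the other way, with 13 reads in Ad-Cre and 4 in Ad-GFP (ratio 3.69, 1.14 to 15.5).

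**Figure D4:**
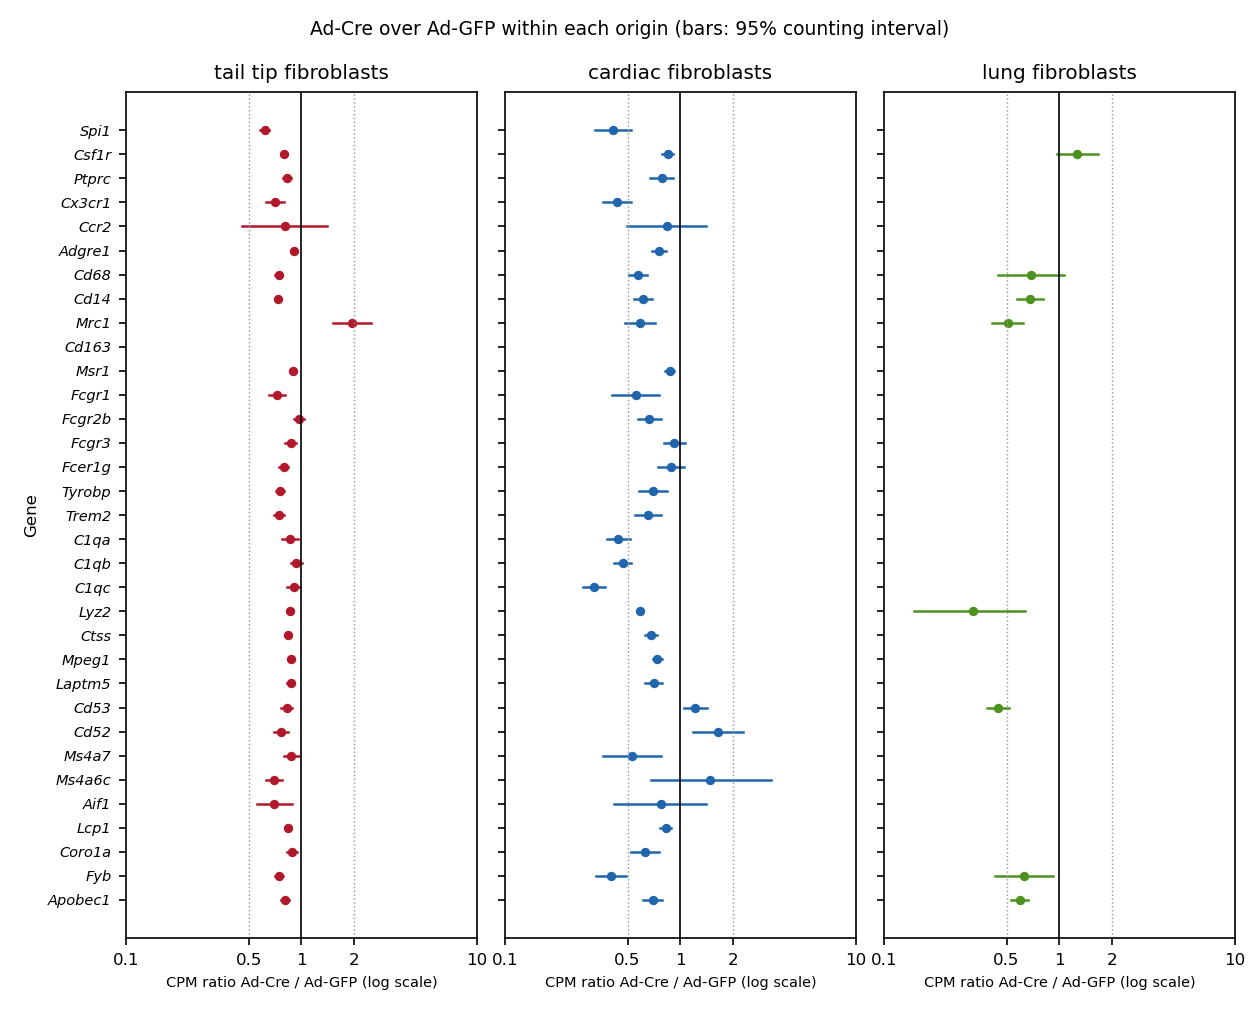
CPM ratio of Ad-Cre to Ad-GFP (log scale) for each member with at least 20 reads in the pair, in tail tip, cardiac and lung fibroblasts, with 95% counting intervals as bars, a solid line at 1 and dotted lines at 2-fold. Nearly all tail tip and cardiac points lie left of 1, with Mrc1 to the right in tail tip and Cd53 and Cd52 to the right in cardiac cells.

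Other genes of phagocytes, in lists beside the 33, are counted here next to the 28.2% of all tested genes that were higher in tail tip than in lung cells and the 18% that were higher than in cardiac cells. Many of them had fewer than 10 reads in both lung libraries and were tested only because of other origins, so their counts against lung are a description and no support for an order of origins. These were 4 of the 6 genes of the phagocyte NADPH oxidase, 3 of the 7 myeloid transcription factors, 3 of the 6 leukocyte integrins and 5 of the 7 Toll-like receptors. All 6 genes of the NADPH oxidase, which makes superoxide, were higher in tail tip than in lung cells, and 5 of 6 were higher than in cardiac cells. Cybb, its catalytic subunit, had 11553 reads in tail tip Ad-Cre and 13236 in tail tip Ad-GFP, 1291 in cardiac Ad-Cre and 1560 in cardiac Ad-GFP, and 0 and 3 in lung Ad-Cre and Ad-GFP. All 7 myeloid transcription factors were higher in tail tip than in lung cells and 6 of 7 higher than in cardiac cells, although Runx1, with at least 1569 reads in each library, was expressed in all 3 origins. Of the 6 leukocyte integrins, 5 were higher in tail tip than in lung cells. Against cardiac cells, 4 were higher and 1, Itga4, lower, where 15.5% of all genes were lower. Itgb2, the shared beta 2 chain, had 6429 and 7727 reads in tail tip Ad-Cre and Ad-GFP, 676 and 1099 in cardiac Ad-Cre and Ad-GFP, and 54 and 28 in lung Ad-Cre and Ad-GFP. All 7 Toll-like receptors were higher in tail tip than in lung cells, and 5 of 7 higher than in cardiac cells.

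Myeloid growth factors did not follow the members, with 0 of 4 higher and 2 lower in tail tip than in cardiac cells, beside 18% and 15.5% of all genes. The 2 lower ones were Csf1 and Il34, which encode the ligands of Csf1r. Csf1 had 60805 reads in tail tip Ad-Cre and 55792 in tail tip Ad-GFP, 98292 in cardiac Ad-Cre and 112736 in cardiac Ad-GFP, and 42310 in lung Ad-Cre and 34908 in lung Ad-GFP. It was highest in cardiac cells (tail tip over cardiac -0.90, SE 0.18, edgeR adjusted p = 0.00926) and abundant in lung cells, where Csf1r had 117 and 105 reads in Ad-Cre and Ad-GFP. Of the monocyte attractants, all 5 were higher in tail tip than in lung cells, beside 28.2% of all genes. Against cardiac cells 3 were higher, beside 18%. Cx3cl1 had 60.4 and 63.7 CPM in tail tip Ad-Cre and Ad-GFP, below the 78.7 and 89.2 CPM of cardiac Ad-Cre and Ad-GFP. Ccl12 had only 47 and 27 reads in tail tip Ad-Cre and Ad-GFP. Of these 5, Ccl8 and Ccl12 had fewer than 10 reads in both lung libraries. Ccl2, a ligand of Ccr2, had 27838 reads in tail tip Ad-Cre and 23725 in tail tip Ad-GFP, 2559 in cardiac Ad-Cre and 1589 in cardiac Ad-GFP, and 1938 in lung Ad-Cre and 2420 in lung Ad-GFP. Its tail tip values stood above those of the other origins, by 3.61 on the log2 scale over cardiac (SE 0.24, edgeR adjusted p = 7.75e-05).

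Markers of T, B, NK and mast cells and of neutrophils summed to under 6 CPM in every library, with single genes higher in 1 origin. The T cell list of 8 genes summed to between 0.48 and 1.75 CPM in the 6 libraries, and Cd3g and Cd8b1 had 0 reads in all of them. The B cell list summed to between 0.274 and 2.73 CPM with Ms4a1 at 0 in all libraries, the NK cell list to between 0.0314 and 2.22 CPM with Gzma at 0, and the mast cell list to at most 0.589 CPM with Fcer1a and Mcpt4 at 0. The neutrophil list reached 5.34 and 5.28 CPM in tail tip Ad-Cre and Ad-GFP, of which Csf3r and S100a8 gave most, while Ly6g had at most 1 read and Retnlg 0. S100a8 had 78 and 66 reads in tail tip Ad-Cre and Ad-GFP, 0 and 5 in cardiac Ad-Cre and Ad-GFP and 3 and 5 in lung Ad-Cre and Ad-GFP. Pax5, a transcription factor of B cells, had 61 and 75 reads in tail tip Ad-Cre and Ad-GFP, 0 in both cardiac libraries and 1 and 0 in lung Ad-Cre and Ad-GFP. S100a8, Csf3r and Pax5 were called higher in tail tip cells than in either other origin by edgeR, with few or no reads outside them. Over all genes 28.2% were higher in tail tip than in lung cells and 18% higher than in cardiac cells. These 3 genes passed the filter on low counts through the tail tip libraries, so their calls describe them and support nothing more. Eomes, of the NK cell list, had 1 and 0 reads in tail tip Ad-Cre and Ad-GFP, 42 and 36 in cardiac Ad-Cre and Ad-GFP and 4 and 5 in lung Ad-Cre and Ad-GFP. In tail tip cells the Langerhans and dendritic cell list was higher than these, at 12.5 and 16.1 CPM in Ad-Cre and Ad-GFP. Cd207 gave most of it, with 370 and 468 reads, while Flt3 had 0 and Clec9a 1 and 2. The list lay within the range of the others in cardiac cells (1.08 and 1.505 CPM in Ad-Cre and Ad-GFP) and lung cells (0.43 and 0.10 CPM). MHC class II genes were also low, with 295 and 305 reads of H2-Ab1 in tail tip Ad-Cre and Ad-GFP, 17 and 18 in cardiac Ad-Cre and Ad-GFP, and 0 in both lung libraries.

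**Figure D5:**
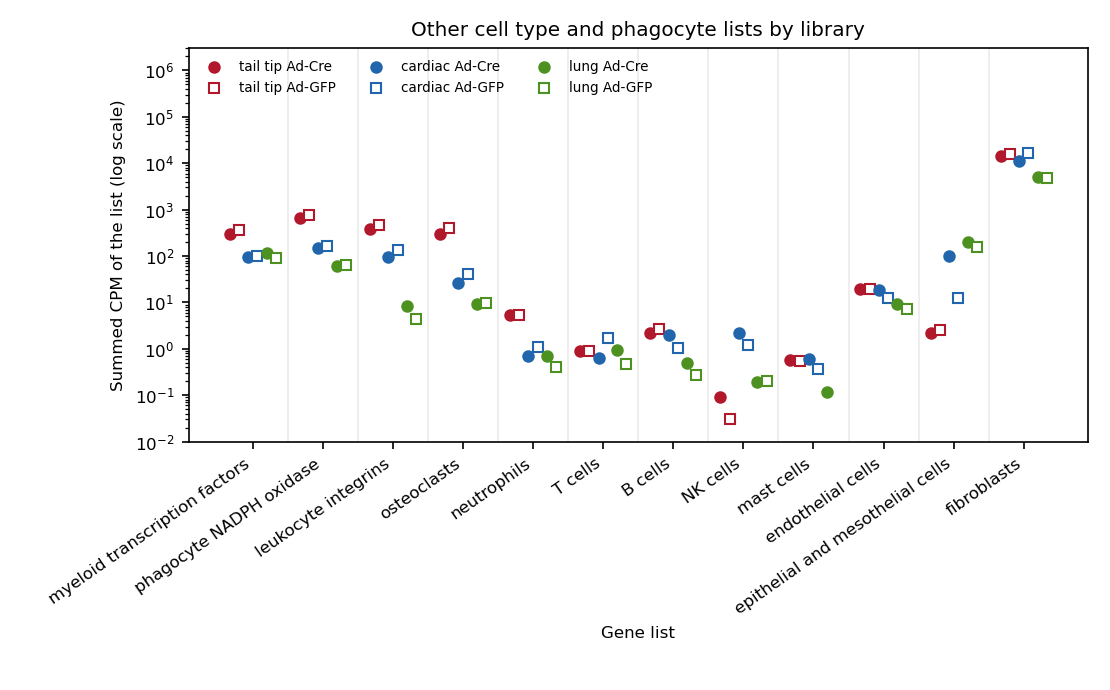
Summed CPM (log scale) of 12 other gene lists in the 6 libraries, with Ad-Cre filled and Ad-GFP open; the mast cell list has no point in lung Ad-GFP, where it had 0 reads. Phagocyte lists and the osteoclast list are highest in tail tip cells, T, B, NK and mast cell lists stay under 3 CPM, and the epithelial and mesothelial list is higher in cardiac Ad-Cre than in cardiac Ad-GFP.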

How the data were processed

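Polyadenylated RNA was measured in 6 libraries, 1 for each of 3 origins and 2 viruses. The authors deposited raw whole-number counts, 1 per Ensembl gene. The submitters' processing notes name the mm39 build and STAR 2.0.7; counting tool, annotation release, strand setting and filters were not given in the sources used, so reads of overlapping or near-identical genes may be mixed. All 6 count columns were matched to libraries by the column names in the labels, which place them in a matrix titled for another subject.

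Symbols matched 51884 of 57180 identifiers in a GENCODE annotation of GRCm38, which also gave exon lengths and overlaps. Genes passing filterByExpr (minimum count 10; 18143 genes) were tested two-sided in edgeR 4.0.16 with TMM factors (0.964 to 1.03) and robust quasi-likelihood F-tests, in 1 additive model of origin and virus (2 residual degrees of freedom, common dispersion 0.0455), with Benjamini-Hochberg adjustment over all genes. The fit was tested on simulated data first. Within an origin, CPM ratios carry exact conditional binomial 95% intervals, and log2 ratios, to which "2-fold" refers, a prior count of 2. A library with 0 reads of a gene can hold up to 3 counts, or 0.0906 to 0.117 CPM. Reads carry no molecular identifiers and may repeat a molecule; intervals and floors reflect counting error alone.

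The 33 members were sorted into 7 roles. Described in full are the 12 with the highest mean CPM, those passing a test, and those whose direction in an origin opposed the median with an interval that excluded 1. Other lists are given by counts and up to 3 examples of highest mean CPM; genes named for a level of 0, for an opposite call or for their own role were chosen after their values were seen. The members and the lists were chosen with earlier results of these data known. Alternatives were DESeq2 1.42.0, limma-voom (limma 3.58.1), other scaling, no filter, other prior counts and leaving out libraries.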

Additional observations from a re-analysis of the deposited data

Results flagged for a closer look

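For 4 members the counting intervals of Ad-Cre over Ad-GFP lay on opposite sides of 1 in different origins, which is what brought them here. With 1 library per group the difference between origins was not tested, and no replicate check exists. Cx3cr1 had a ratio of 0.7095 in tail tip cells and 0.435 in cardiac cells, but 3.691 in lung cells, where it rests on 13 reads in Ad-Cre and 4 in Ad-GFP. Mrc1 had a ratio of 1.93 in tail tip cells, against 0.5891 in cardiac cells and 0.5092 in lung cells. Cd53 had a ratio of 1.216 in cardiac cells, against 0.8239 in tail tip cells and 0.448 in lung cells. Cd52 had a ratio of 1.631 in cardiac cells and 0.7675 in tail tip cells, and 2 and 1 reads in lung Ad-Cre and Ad-GFP. Its cardiac ratio rests on 98 and 64 reads in Ad-Cre and Ad-GFP. The overlapping gene Crybg2 had 51 and 3 reads there, and its part in the ratio was not tested.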

How the results depend on the processing

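For Ad-Cre over Ad-GFP across the 3 origins, where 0 genes and 0 members passed, DESeq2 called 3 genes, the fit without a filter on low counts 141 genes and 3 members (Spi1, Lyz2 and Fyb), and leaving out 1 library 11 to 109 genes and 0 to 1 members (Cd53 where 1 cardiac library was left out, C1qc without tail tip Ad-Cre). Leaving out both libraries of an origin was added after seeing the data: it called 3 genes without cardiac and 36 without tail tip cells. Leaving out 1 library moved the genes called for tail tip over lung to between 5995 and 12560 and for tail tip over cardiac to between 3110 and 9205. In those leave-one-out fits the lone library of an origin is assumed to vary like the others. Members higher in tail tip than cardiac cells numbered 22 with limma-voom, which lost Msr1, Fcgr2b, Fcgr3, C1qb, C1qc and Laptm5. The count of members 2-fold lower in lung cells was 8 with a prior count of 0.5, 3 with 5, and 2 among members with at least 20 reads. The summed ratio of Ad-Cre over Ad-GFP was 0.6774 in cardiac cells without TMM factors and 0.7061 without Lyz2, and in tail tip cells 0.8372 with DESeq2 size factors and 0.8299 without Lyz2. The cause of these shifts was not tested. Over the 32 tested members and all settings, 1556 single values kept their direction and side of the threshold, 28 newly passed and 16 no longer passed. The model of origin and virus already sets each Ad-Cre library against the Ad-GFP library of its origin. By replicate number no paired analysis was possible because each group holds 1 library. Depth limits the lung pair, where 22 members had under 10 reads in each library.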

Other observations

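Genes listed for particular macrophage states differed in level between the origins, and which cells held their reads was not tested. Of the 6 osteoclast genes, all were higher in tail tip than in lung cells and all higher than in cardiac cells by edgeR, beside 28.2% and 18% of all genes. Of these 6, 4 had fewer than 10 reads in both lung libraries and 3 in both cardiac libraries. Such genes passed the filter mainly through tail tip cells, although Acp5 had reads in cardiac cells as well. The counts describe the list without supporting more. Acp5, the acid phosphatase TRAP, had 3104 reads in tail tip Ad-Cre and 4229 in tail tip Ad-GFP, 30 in cardiac Ad-Cre and 50 in cardiac Ad-GFP, and 2 and 6 in lung Ad-Cre and Ad-GFP. Ocstamp, which takes part in the fusion of osteoclast precursors, had 166 and 176 reads in tail tip Ad-Cre and Ad-GFP and 0 in the other four libraries. Of the 6 genes of lipid-associated macrophages, 5 were higher in tail tip than in cardiac cells. Against lung cells, 3 were higher and 1, Fabp5, lower, where 22.3% of all genes were lower. Spp1, the secreted glycoprotein osteopontin, had 168933 and 173292 reads in tail tip Ad-Cre and Ad-GFP, 13164 and 13690 in cardiac Ad-Cre and Ad-GFP, and 66178 and 136252 in lung Ad-Cre and Ad-GFP. Its tail tip over lung difference missed the threshold (0.58, SE 0.23, edgeR adjusted p = 0.0763), and its lung values lay above the cardiac ones. Gpnmb, a glycoprotein of lysosome-rich cells, had 36098 and 41150 reads in tail tip Ad-Cre and Ad-GFP, 5221 and 7335 in cardiac Ad-Cre and Ad-GFP, and 1498 and 1413 in lung Ad-Cre and Ad-GFP. Marco, a scavenger receptor known from alveolar macrophages, had 1474 and 1248 reads in tail tip Ad-Cre and Ad-GFP, 63 and 274 in cardiac Ad-Cre and Ad-GFP, and 1 and 0 in lung Ad-Cre and Ad-GFP, where the other alveolar genes were at or near 0 as well. Cd207, the langerin of Langerhans cells of the skin, had 370 and 468 reads in tail tip Ad-Cre and Ad-GFP, 11 and 13 in cardiac Ad-Cre and Ad-GFP, and 0 in both lung libraries.

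Efferocytosis genes, which serve the uptake of dying cells, split by gene. Of 6 such genes, 2 were higher and 3 lower in tail tip than in cardiac cells, beside 18% and 15.5% of all genes. Against lung cells, 3 were higher and 2 lower, beside 28.2% and 22.3%. Axl, the most abundant of them, had 16400 and 12657 reads in tail tip Ad-Cre and Ad-GFP. It had 52416 and 58074 in cardiac Ad-Cre and Ad-GFP and 32076 and 34768 in lung Ad-Cre and Ad-GFP. Mertk, an efferocytosis receptor on macrophages, had 196 and 245 reads in tail tip Ad-Cre and Ad-GFP. It had 2863 and 3270 in cardiac Ad-Cre and Ad-GFP and 345 and 223 in lung Ad-Cre and Ad-GFP. Mertk was lower in tail tip than in cardiac cells (log2 difference -3.83, SE 0.30, edgeR adjusted p = 0.000135). Gas6, a ligand of that receptor, had 30729 and 26837 reads in tail tip Ad-Cre and Ad-GFP. It had 1349 and 1074 in cardiac Ad-Cre and Ad-GFP and 4 and 11 in lung Ad-Cre and Ad-GFP. Gas6 was higher in tail tip than in cardiac cells (4.53, SE 0.23, edgeR adjusted p = 3.26e-05). Of 6 genes of inflammatory activation, 4 were higher and 1, Il6, lower in tail tip than in cardiac cells. Over all genes these shares were 18% and 15.5%. Against lung cells, 3 were higher and 2, Ptgs2 and Il6, lower, beside 28.2% and 22.3% of all genes. Ptgs2, the inducible cyclooxygenase and the most abundant gene of the list, had 17233 and 13629 reads in tail tip Ad-Cre and Ad-GFP, 19842 and 22845 in cardiac Ad-Cre and Ad-GFP, and 32674 and 49756 in lung Ad-Cre and Ad-GFP. Il6, an inflammatory cytokine, had 132 and 146 reads in tail tip Ad-Cre and Ad-GFP, 325 and 571 in cardiac Ad-Cre and Ad-GFP, and 162 and 330 in lung Ad-Cre and Ad-GFP. Tnf, another such cytokine, had 875 and 997 reads in tail tip Ad-Cre and Ad-GFP, 15 and 107 in cardiac Ad-Cre and Ad-GFP, and 2 and 3 in lung Ad-Cre and Ad-GFP. Of the 4 higher than in cardiac cells, Nos2, Il1b and Il12b had fewer than 10 reads in both cardiac libraries. Of the 3 higher than in lung cells, Il1b and Tnf had fewer than 10 reads in both lung libraries. Counts that rest on such genes describe the list and support nothing more.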
